A study of Pan troglodytes and Macaca mulatta with 12 samples.

Results

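The BCL2 family of apoptosis regulators was followed in lymphoblastoid cell lines, that is B lymphocytes kept dividing in culture, from chimpanzee (Pan troglodytes) and rhesus macaque. The family was taken as 10 genes named by human Ensembl identifier and symbol: the pro-survival genes BCL2, BCL2L1, MCL1 and BCL2A1, the effectors BAX and BAK1, and the BH3-only genes BID, BCL2L11, BBC3 and PMAIP1. Of the 10, 8 had counts among the 16903 genes with at least 1 count, and all 8 were among the 9440 genes with enough counts for testing. BCL2A1 (ENSG00000140379) and BAK1 (ENSG00000030110) had no exon in any of the 12 files. The sources used here do not say whether the exon set behind the files held these genes, so no level is stated for them and they were not analysed here. One library came from each of 6 chimpanzee lines (3 male and 3 female animals) and 6 rhesus macaque lines (4 male and 2 female animals), with each line from a separate individual. All lines were grown in the same serum-supplemented RPMI-1640 medium, and the labels name no treatment and no genetic change. The sources used here do not give the agent that immortalised the cells, the animals' ages or the number of passages. The B cell identity of the lines was not checked against marker genes, because the files and the name tables used here pair no identifier with a symbol.

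Proteins of the BCL2 family decide whether the outer membrane of mitochondria stays intact. Effectors such as BAX form pores in that membrane and release cytochrome c, pro-survival members bind and restrain them, and BH3-only proteins respond to stress by blocking the pro-survival members or by activating the effectors directly. In B lymphocytes the family sets how long a cell lives after activation, and individual BH3-only proteins differ in which pro-survival partner they bind.

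Library totals ran from 1434241 to 4751954 counts, and the members together held between 2279 and 8871 counts of a library. Libraries of both species were separated by the first principal component of log2 CPM (counts scaled to a common library size), which held 63.5% of the variance. The labels name no culture, extraction or sequencing batch, so a batch that follows species cannot be told apart from species. Nor can a difference between the species in how reads were aligned to or counted on the listed exons. In 3 libraries the genes of chromosome 19 stood low for their species, with a median deviation from the species mean of -0.66 (log2) in chimpanzee replicate 1 and of -0.24 and -0.25 in rhesus macaque replicates 5 and 6. The same 3 had the highest values on the second component, 61.7, 27.9 and 36.1, though chimpanzee replicates 2 and 5 lay on the other side of the chimpanzee lines, at -36.2 and -48.1. The species tests of gene level and of exon usage were also made without these 3 libraries, called below the libraries that lie apart. Overlaps between libraries, values of single exons, levels per exon length, shares and ratios were taken over all libraries only.

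The main comparison asked which family members differ in transcript level between the species. Chimpanzee lines held more MCL1, BCL2L1 and PMAIP1 and less BAX and BBC3 than rhesus macaque lines, and BCL2, BID and BCL2L11 did not pass the test. Over the pro-survival genes, 2 of the 3 tested were higher in chimpanzee and none was lower. The tested effector, BAX, was lower, and of the 4 BH3-only genes 1 was higher and 1 was lower. In all, 5 of the 8 members passed (edgeR quasi-likelihood test, adjusted p under 0.05 over all 9440 genes), beside 48.2% of all tested genes (24.7% higher and 23.5% lower in chimpanzee). With a background that high, the number of called members does not set the family apart. The median log2 fold change, chimpanzee minus rhesus macaque, was -0.44 over the 8 members and 0.04 over all tested genes. The median size without regard to sign was 1.30 against 0.71. Neither contrast was tested, and 62.5% of the members had only 1 or 2 listed exons, beside 15.9% of all tested genes. Libraries of the species did not overlap for 3 members (BAX, BBC3 and PMAIP1), beside 27.1% of all tested genes (13.3% with chimpanzee above and 13.8% with chimpanzee below).

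**Figure D1:**
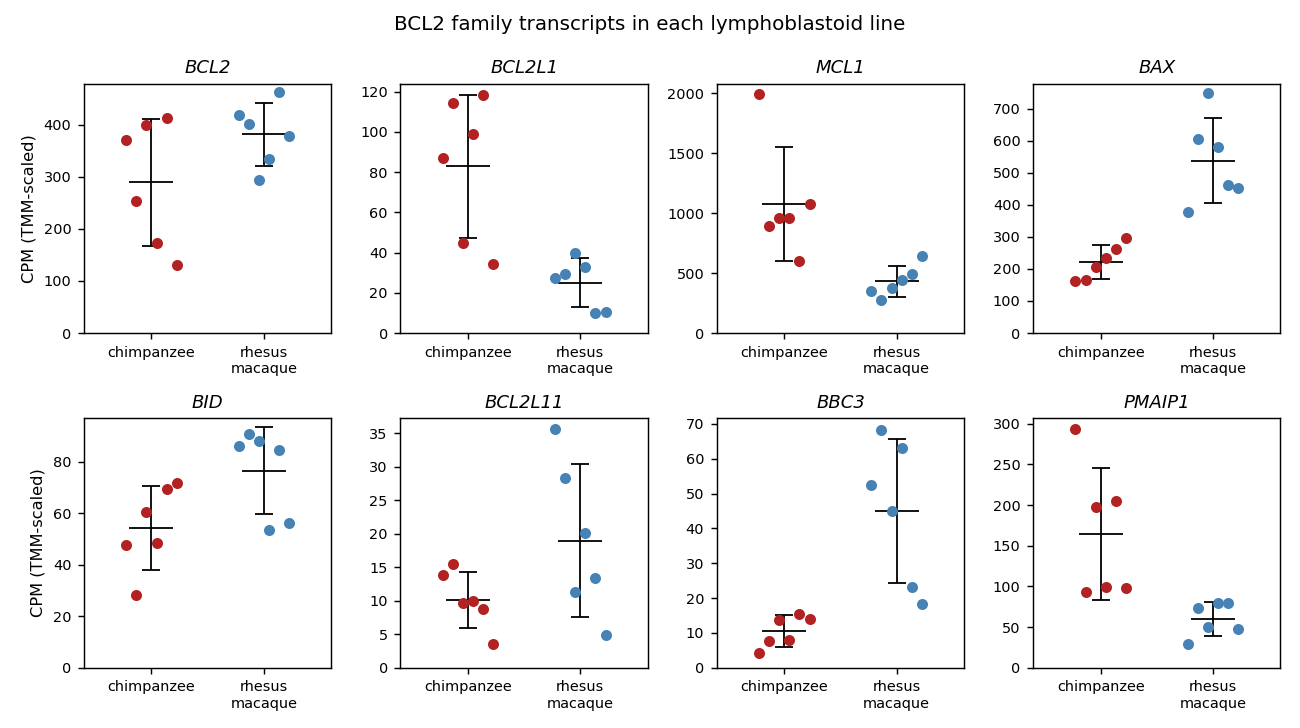
Level of each of the 8 counted members in every line, in CPM (counts scaled to a common library size, here with TMM factors), on axes that start at 0. Points are libraries in order of replicate number (chimpanzee left, rhesus macaque right), and bars give the mean and SD of 6 libraries. BAX and BBC3 lie lower in every chimpanzee library than in any rhesus macaque library, and PMAIP1 lies higher.

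Among the pro-survival genes, MCL1 was the most abundant in chimpanzee. MCL1 (ENSG00000143384), which encodes a short-lived protein on which many B cells depend, is counted on 2 exons on chromosome 1 from 148813661 to 148817591. It ran from 600 CPM through a median of 958 CPM to 1993 CPM in chimpanzee lines, and from 279 through 409 to 645 CPM in rhesus macaque lines. The ranges overlapped in 1 line of each species, since 5 of 6 chimpanzee lines stood above every rhesus macaque line. Chimpanzee lines averaged 1079 ± 475 CPM and rhesus macaque lines 430 ± 128 CPM (SD over 6 lines each), and the log2 fold change was 1.33 ± 0.28 (SE, edgeR adjusted p = 0.00138). Chimpanzee replicate 1, at 1993 CPM, stood far above the next chimpanzee line at 1073 CPM. Without that library the log2 fold change was 1.05 and the call was kept (edgeR adjusted p between 0.000654 and 0.00438 over the fits that leave out 1 library). Fewer cells with a high level and a lower level in every cell cannot be told apart in these libraries, for this or any other member.

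BCL2L1 (ENSG00000171552), which encodes BCL-XL, is counted on a single exon of 375 bases on chromosome 20 from 29773308 to 29773682. Its level ran from 34.4 CPM through a median of 92.8 CPM to 119 CPM in chimpanzee lines, and from 9.93 through 28.2 to 40.0 CPM in rhesus macaque lines. Only chimpanzee replicate 6, the lowest of its species, fell within the rhesus macaque range, while chimpanzee replicate 3 stood just above it at 44.9 CPM. Chimpanzee lines averaged 83.0 ± 35.6 CPM and rhesus macaque lines 25.0 ± 12.2 CPM (SD over 6 lines each), and the log2 fold change was 1.74 ± 0.40 (SE, edgeR adjusted p = 0.00277). The lowest rhesus macaque values, 9.93 and 10.7 CPM, came from replicates 5 and 6, which are among the 3 libraries that lie apart. Without those 3 libraries the log2 fold change was 1.33 (edgeR adjusted p = 0.0145). Since 1 exon carries the whole value, other parts of the transcript were not compared.

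BCL2 (ENSG00000171791), the founding member, first known from a translocation in follicular lymphoma, is counted on 3 exons on chromosome 18 from 58941559 to 59137593. It ran from 130 CPM through 312 to 414 CPM in chimpanzee lines and from 293 through 390 to 462 CPM in rhesus macaque lines. The 2 ranges overlapped, although 3 chimpanzee lines (replicates 2, 4 and 6) stood below every rhesus macaque line. Chimpanzee lines averaged 290 ± 122 CPM and rhesus macaque lines 381 ± 60.8 CPM (SD over 6 lines each), and the log2 fold change of -0.40 ± 0.27 (SE) did not pass (edgeR adjusted p = 0.240). On the log2 scale BCL2 had an SD of 0.70 between chimpanzee lines and 0.24 between rhesus macaque lines, and the difference between these spreads was not tested.

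BAX (ENSG00000087088), the pore-forming effector, is counted on 6 exons on chromosome 19 from 54149929 to 54156864. It ran from 162 CPM through 219 to 298 CPM in chimpanzee lines and from 378 through 522 to 749 CPM in rhesus macaque lines. The highest chimpanzee line therefore stood below the lowest rhesus macaque line. Chimpanzee lines averaged 221 ± 54.0 CPM and rhesus macaque lines 538 ± 133 CPM (SD over 6 lines each), and the log2 fold change was -1.28 ± 0.21 (SE, edgeR adjusted p = 0.000233), which was the smallest adjusted p among the members. BAX had the same spread in both species, an SD of 0.35 on the log2 scale.

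The BH3-only genes went in different directions. PMAIP1 (ENSG00000141682), also known as NOXA, encodes a protein that binds MCL1 and is counted on 1 exon of 1660 bases on chromosome 18 from 55720859 to 55722518. It ran from 92.9 CPM through 148 to 293 CPM in chimpanzee lines and from 29.0 through 61.8 to 80.0 CPM in rhesus macaque lines, with no overlap. Chimpanzee lines averaged 164 ± 81.2 CPM and rhesus macaque lines 59.9 ± 20.9 CPM (SD over 6 lines each), and the log2 fold change was 1.45 ± 0.34 (SE, edgeR adjusted p = 0.00282). Among the chimpanzee lines, replicates 2, 4 and 6 stood at 92.9 to 99.5 CPM, and replicates 1, 3 and 5 stood at 197 to 293 CPM.

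BBC3 (ENSG00000105327), also known as PUMA, encodes a BH3-only protein that binds all the main pro-survival members. It is counted on 2 exons on chromosome 19 from 52421661 to 52427699. Its level ran from 4.14 CPM through 10.9 to 15.6 CPM in chimpanzee lines and from 18.2 through 48.7 to 68.4 CPM in rhesus macaque lines. No chimpanzee line reached the lowest rhesus macaque line, replicate 6, and the gene rests on 194 counts in all chimpanzee libraries and 689 in all rhesus macaque libraries. Chimpanzee lines averaged 10.5 ± 4.53 CPM and rhesus macaque lines 45.0 ± 20.6 CPM (SD over 6 lines each), and the log2 fold change was -2.07 ± 0.39 (SE, edgeR adjusted p = 0.000604). BBC3 was the only member whose difference passed the test for a change beyond 2-fold (edgeR glmTreat, adjusted p = 0.0121), which 17.2% of all tested genes passed in either direction and 8.51% passed as lower in chimpanzee. BCL2L1 came next (edgeR glmTreat, adjusted p = 0.0632). With limma voom no member passed that test (2 at an unadjusted p under 0.05, BBC3 and BCL2L1, against 5 in edgeR and 1 in DESeq2), and without chimpanzee replicate 3 or 6 or rhesus macaque replicate 3 both BBC3 and BCL2L1 did (adjusted p for BCL2L1 = 0.0417, 0.0263 and 0.0373 in edgeR glmTreat).

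BID (ENSG00000015475), which links death receptors to mitochondria once it is cleaved by a caspase, is counted on 5 exons on chromosome 22 from 16600783 to 16637263. Chimpanzee lines averaged 54.3 ± 16.2 CPM and rhesus macaque lines 76.6 ± 17.0 CPM (SD over 6 lines each), and the log2 fold change of -0.49 ± 0.24 (SE) did not pass (edgeR adjusted p = 0.108). The ranges, 28.4 to 71.7 CPM in chimpanzee lines and 53.4 to 90.9 CPM in rhesus macaque lines, overlapped. BCL2L11 (ENSG00000153094) encodes BIM, the BH3-only protein that removes self-reactive lymphocytes. It is counted on chromosome 2 from 111597781 to 111625899 and was the scarcest member in counts, with 150 counts over all chimpanzee and 277 over all rhesus macaque libraries. Chimpanzee lines averaged 10.2 ± 4.18 CPM and rhesus macaque lines 18.95 ± 11.4 CPM (SD over 6 lines each), and the log2 fold change of -0.90 ± 0.46 (SE) did not pass (edgeR adjusted p = 0.119). Its rhesus macaque lines ran from 4.92 to 35.6 CPM, the widest range relative to the lowest line among the members. Without rhesus macaque replicate 6, the lowest of them, its difference passed (log2 fold change of -1.13, edgeR adjusted p = 0.0333), and without the 3 libraries that lie apart it also passed (log2 fold change of -1.35, edgeR adjusted p = 0.0265).

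**Figure D2:**
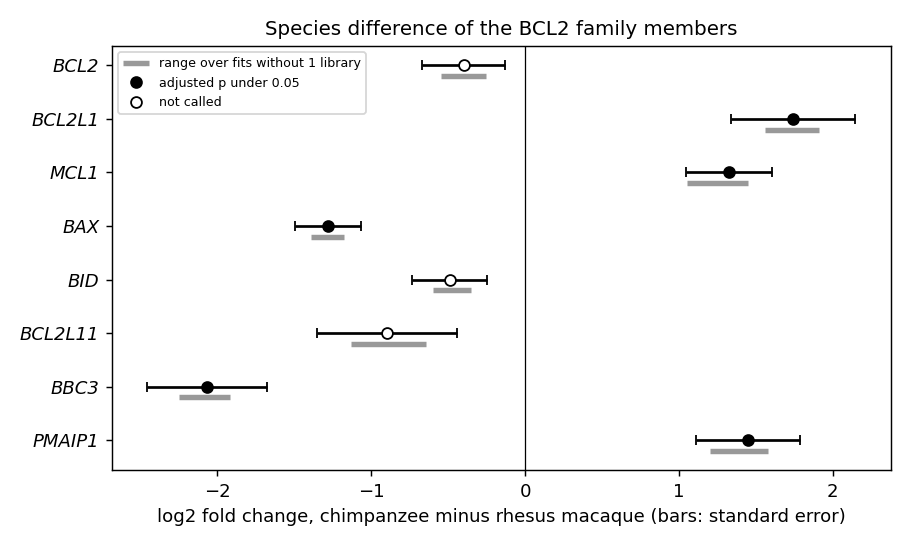
Fitted log2 fold change of each member, chimpanzee minus rhesus macaque, with its standard error (n = 6 libraries each) on the horizontal axis. Filled points passed at an adjusted p under 0.05 over all tested genes, and grey bars give the range of the value when 1 library is left out. MCL1, BCL2L1 and PMAIP1 lie to the right of 0, at 1.33, 1.74 and 1.45, and BAX and BBC3 to the left, at -1.28 and -2.07.

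BAX and BBC3 both lie on chromosome 19 of the files' coordinates, and genes of that chromosome stood lower in chimpanzee in general. Of its 638 tested genes 44.4% were called lower and 10.3% higher in chimpanzee. The median of its log2 fold changes was -0.58, against -1.28 for BAX and -2.07 for BBC3. BCL2 and PMAIP1 lie on chromosome 18, where 31.8% of 132 tested genes were called higher and 15.9% lower. Without the 3 libraries that lie apart, BAX was at -1.32 (edgeR adjusted p = 0.00100) and BBC3 at -2.28 (edgeR adjusted p = 0.000124). These libraries come from both species, so leaving out all 3 can move the difference either way. Without chimpanzee replicate 1 alone, BAX was at -1.21 and BBC3 at -1.92. Leaving out only rhesus macaque replicate 5 gave -1.33 and -2.21, and only replicate 6 gave -1.34 and -2.25. The part that the chromosome plays in these differences was not tested. The tested genes next to a member did not share its difference throughout. The gene 10.4 kb before BAX was lower in chimpanzee by more than BAX itself (log2 fold change of -2.92, edgeR adjusted p = 1.13e-05), while the gene 7.98 kb after it was at -0.03 (edgeR adjusted p = 0.924). Beside BBC3, the gene 25.7 kb after it was also lower (log2 fold change of -1.16, edgeR adjusted p = 0.00147), and the gene 29.2 kb before it did not pass (log2 fold change of -0.47, edgeR adjusted p = 0.0690). Next to MCL1, the gene 43.6 kb after it was higher in chimpanzee (log2 fold change of 0.69, edgeR adjusted p = 0.0376), and the gene 13.6 kb before it did not pass (log2 fold change of -0.42, edgeR adjusted p = 0.543). Neither neighbour of BCL2L1 passed (edgeR adjusted p = 0.0757 and 0.115). PMAIP1 had no tested gene close by. The nearest lay 543 kb before it, with no call (log2 fold change of 0.13, edgeR adjusted p = 0.830), and 2140 kb after it, higher in chimpanzee (log2 fold change of 1.21, edgeR adjusted p = 0.00482). Both neighbours of BCL2L11, a member with no call, were higher in chimpanzee, with log2 fold changes of 2.75 and 1.72 (edgeR adjusted p = 0.000514 and 0.00489). They lay 30.8 kb before and 732 kb after it and averaged only 2.12 and 3.59 CPM in rhesus macaque. Beside BID, also with no call, the gene before it was higher (log2 fold change of 0.63, edgeR adjusted p = 0.0181). The gene after BID was lower (log2 fold change of -1.10, edgeR adjusted p = 0.0267). Neither neighbour of BCL2 passed (edgeR adjusted p = 0.198 and 0.520). Of all tested genes 48.2% were called in either direction.

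Levels were compared between members after division by the length of the listed exons (CPM per kb). In chimpanzee the order was MCL1, BAX, BCL2L1, PMAIP1, BID, BCL2, BBC3 and BCL2L11, with means of 339 ± 150 for MCL1, 274 ± 66.9 for BAX, 221 ± 94.9 for BCL2L1 and 99.0 ± 48.9 CPM per kb for PMAIP1 (SD, n = 6). The first 3 of these overlap in their ranges of mean ± SD. In rhesus macaque BAX came first with 667 ± 165 CPM per kb, ahead of BBC3 at 161 ± 73.8 and MCL1 at 135 ± 40.4 CPM per kb (SD, n = 6), and the last pair lie within each other's spread. Set among all tested genes by the same measure, BAX reached percentile 97.1 in chimpanzee and percentile 98.7 in rhesus macaque. BBC3 lay at percentile 61.0 in chimpanzee and percentile 90.8 in rhesus macaque. BCL2L1 lay at percentile 95.9 in chimpanzee and percentile 75.3 in rhesus macaque.

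The make-up of the family within a library does not depend on how libraries are scaled, but it does depend on which exons are listed for each gene. Of the summed CPM per kb of the 8 members, the pro-survival genes BCL2, BCL2L1 and MCL1 held 54.5% ± 8.85 in chimpanzee lines and 21.3% ± 4.43 in rhesus macaque lines (SD over 6 lines each). These shares ran from 44.2% through a median of 52.5% to 65.8% in chimpanzee lines and from 15.9% through 21.3% to 28.4% in rhesus macaque lines, and so did not overlap. BAX alone made up 25.5% ± 7.37 across chimpanzee lines and 52.8% ± 6.04 across rhesus macaque lines. The ratio of MCL1 to BAX, both per kb, ran from 0.578 through 1.11 to 3.13 in chimpanzee lines and from 0.117 through 0.214 to 0.361 in rhesus macaque lines. The ratio of BCL2L1 to BAX ran from 0.248 through 0.940 to 1.48 in chimpanzee lines and from 0.0461 through 0.110 to 0.155 in rhesus macaque lines. Relative to BAX, every chimpanzee line thus held more MCL1 and more BCL2L1 than any rhesus macaque line. Within the BH3-only genes, the ratio of BBC3 to PMAIP1 ran from 0.0840 through 0.466 to 0.845 in chimpanzee lines and from 1.74 through 5.02 to 10.8 in rhesus macaque lines. In contrast, the ratio of PMAIP1 to MCL1 overlapped between the species, with medians of 0.241 in chimpanzee and 0.283 in rhesus macaque, both genes being higher in chimpanzee. The highest pro-survival share and the highest ratio of MCL1 to BAX of each species came from libraries that lie apart. These were chimpanzee replicate 1 (65.8% and 3.13) and rhesus macaque replicate 6 (28.4% and 0.361). BAX and BBC3 lie on chromosome 19, whose genes had a median log2 fold change of -0.58, and its part in these values was not tested. The shares and ratios restate the species differences above, lack BCL2A1 and BAK1, and are given with no test.

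**Figure D3:**
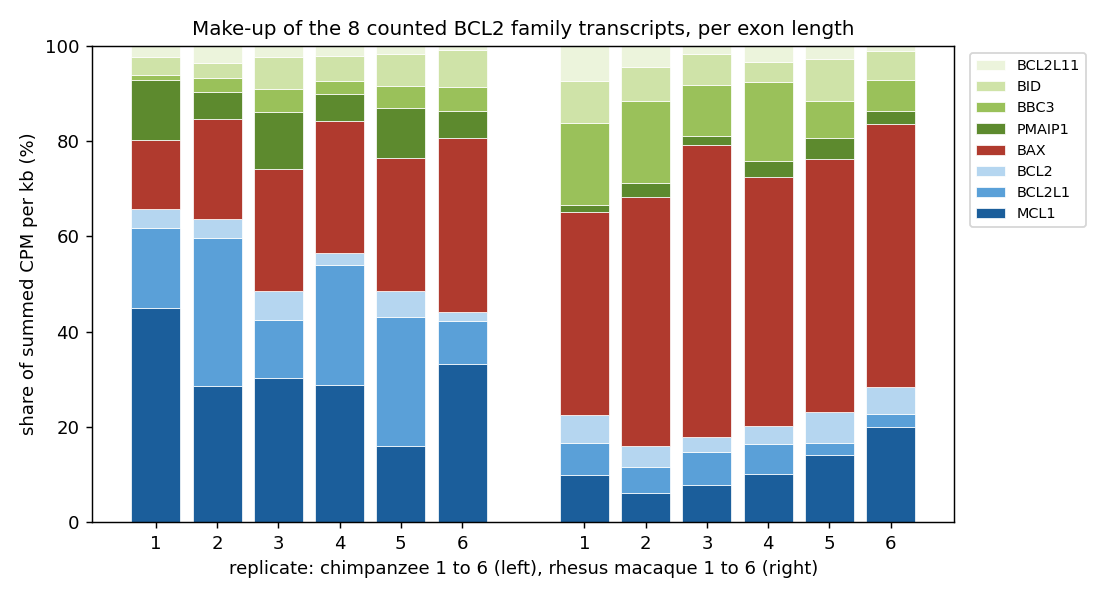
Share of each of the 8 counted members in their summed CPM per kb of listed exon, for every library (chimpanzee replicates 1 to 6 left, rhesus macaque replicates 1 to 6 right). The pro-survival genes are blue, BAX is red and the BH3-only genes are green. The blue part holds 44.2% to 65.8% in chimpanzee libraries and 15.9% to 28.4% in rhesus macaque libraries, where BAX takes the largest part.

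Exons were examined next, because a level that rests on few exons can differ through those exons alone. The 8 members were counted on 22 exons, none of which overlapped an exon of another gene, and 5 of the members had only 1 or 2 listed exons. Of all tested genes with so few exons 49.8% were called for a species difference, beside 47.9% of the genes with more exons. All 6 exons of BAX were lower in chimpanzee, with log2 ratios of the mean CPM from -1.51 to -1.13, and the libraries of the species did not overlap for 4 of them. The same held, with chimpanzee below, for 5.87% of the 90834 exons whose summed count reached 10 (13.3% in either direction), but exons of 1 gene are not independent and BAX as a whole did not overlap either. Both exons of MCL1 were higher in chimpanzee, at 1.38 for the exon of 2931 bases and 1.02 for the exon of 248 bases. With the stronger exon of each gene removed from the whole table, MCL1 was at 0.90 (edgeR adjusted p = 0.00375) and BAX at -1.47 (edgeR adjusted p = 0.000149). Both exons of BBC3 were lower, at -2.09 and -2.14, though the smaller one held only 12 counts in chimpanzee and 48 in rhesus macaque. For BCL2 the exon of 5414 bases was at -0.54 and the other 2 were at 0.04 and 0.08, and the libraries of the species overlapped for all 3.

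**Figure D4:**
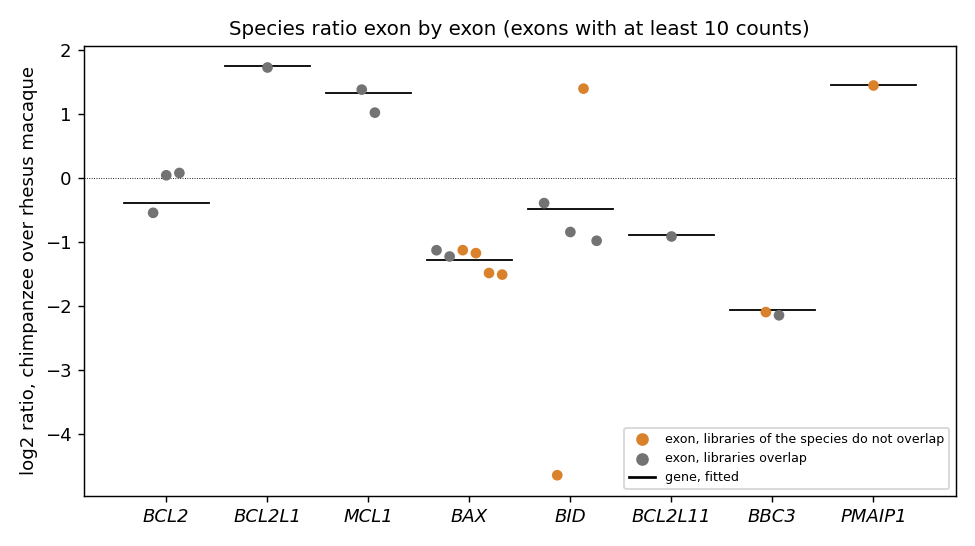
Log2 ratio of the mean CPM in chimpanzee over rhesus macaque for each exon with at least 10 counts, ordered by exon number within each member, with the fitted gene value as a line. Orange exons have no overlap between libraries of the species. All 6 BAX exons lie near the gene value, while BID exons 2 and 4 lie on opposite sides of it, and BID exon 2 rests on 2 counts in chimpanzee.

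The share of a gene's counts on each exon was then tested, apart from the level of the gene. BID was the only one of the 5 members with at least 2 tested exons to be called (edgeR diffSpliceDGE, Simes method, adjusted p = 0.00824), beside 4.27% of all 9970 genes tested. BCL2, MCL1, BAX and BBC3 did not pass in the same edgeR fit (adjusted p = 0.867 for BCL2 and 0.9999 for MCL1, BAX and BBC3). BID exon 2 spans 95 bases, chromosome 22, 16602848 to 16602942. It held 0.141% ± 0.239 of BID counts in chimpanzee lines and 3.18% ± 0.869 in rhesus macaque lines (SD over 6 lines each, edgeR exon adjusted p = 0.00888), and 0.852% of all tested exons were called. It had 2 counts of 972 over all chimpanzee libraries and 41 of 1262 over all rhesus macaque libraries. The pooled shares were 0.206% (95% Clopper-Pearson interval 0.0249% to 0.741%) in chimpanzee and 3.25% (2.34% to 4.38%) in rhesus macaque, intervals that cover counting error only. Chimpanzee replicates 1 to 4 had 0 counts on this exon. Taking 3 counts as the upper limit where 0 are seen, an approximate 95% bound, allows shares of up to 4.35%, 4.29%, 1.84% and 2.36%. Only the limit of replicate 3 lies below the lowest rhesus macaque share of 2.23%, so the difference rests on the 6 chimpanzee libraries together. BID exon 4, of 404 bases from 16636376 to 16636779, went the other way. Its share was 6.76% ± 3.44 in chimpanzee lines and 1.73% ± 0.514 in rhesus macaque lines (SD over 6 lines each). Taken alone, exon 4 missed the threshold (edgeR exon adjusted p = 0.0815). The shares ran from 3.68% to 12.9% in chimpanzee lines and from 1.08% to 2.40% in rhesus macaque lines, with no overlap. They rest on 55 counts over all chimpanzee and 22 over all rhesus macaque libraries. How many of all exons have shares that do not overlap was not counted. Exon 1 held most of the gene, 74.2% ± 8.61 across chimpanzee lines and 69.0% ± 3.84 across rhesus macaque lines. Exon numbers rise with position on the chromosome, whichever way the gene is read. Without the 3 libraries that lie apart, the exon usage of BID did not pass (edgeR Simes adjusted p = 0.0579).

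**Figure D5:**
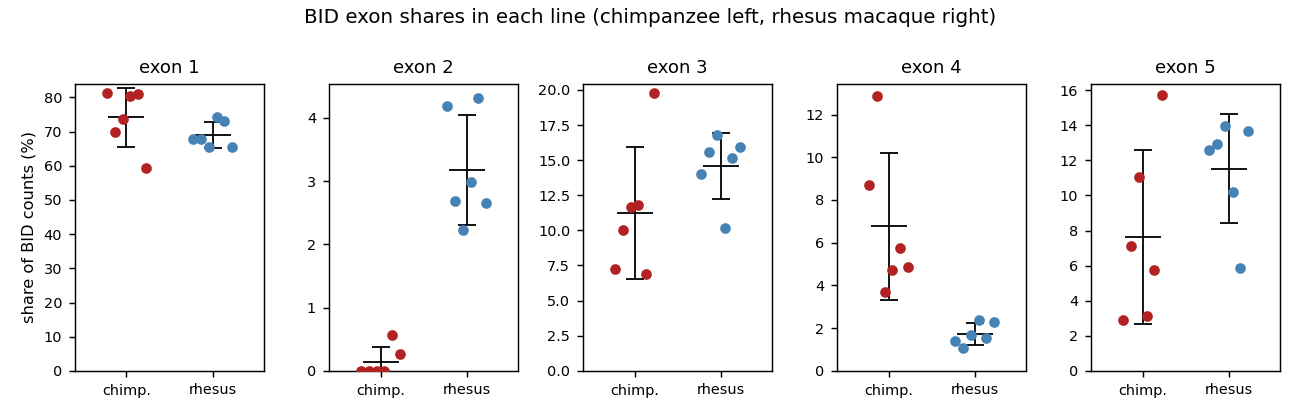
Share of BID counts on each of its 5 listed exons in every line, in percent, with the mean and SD of 6 libraries (chimpanzee left, rhesus macaque right, axes differ between exons). Exon 2 lies between 0% and 0.575% in chimpanzee and between 2.23% and 4.32% in rhesus macaque. Exon 4 is higher in every chimpanzee line than in any rhesus macaque line, on 22 counts over all rhesus macaque libraries.

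Lines of the same species differed several-fold for most members. The highest chimpanzee line exceeded the lowest by 1.84 times for BAX and by between 2.52 and 4.41 times for the others, and in rhesus macaque the ratio ran from 1.58 for BCL2 to 7.24 for BCL2L11. The median SD of log2 CPM was 0.68 over the members in chimpanzee and 0.49 in rhesus macaque, beside 0.48 and 0.45 over all tested genes. No line was high or low for the whole family. Chimpanzee replicate 6 was the lowest chimpanzee line for BCL2, BCL2L1 and BCL2L11 and the highest for BAX and BID. Chimpanzee replicate 1 was the highest for MCL1 and PMAIP1 and the lowest for BAX and BBC3, and rhesus macaque replicate 6 was likewise the highest of its species for MCL1 and the lowest for BBC3. Both of these libraries also had low levels of chromosome 19 genes, where BAX and BBC3 lie, and the part of that shift in their member levels was not tested.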

How the data were processed

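The deposited files give raw counts per exon, 1 file per library, from cDNA libraries read on a Genome Analyzer II, per the labels' protocols. The steps given mark no strand. No source used here names the aligner, the counting program, the genome build or the exon definitions. Coordinates are printed as the files have them. Exons not listed in a file were taken as 0. Counts were summed per gene. Symbols came with the list of members, since 0 of the 16903 identifiers matched the name tables, so other apoptosis genes and marker lists were not run.

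Species were compared with edgeR 4.0.16 (quasi-likelihood, robust, R 4.3.3) with TMM scaling and species as the only term, on genes passing the default filter (minimum count 10, minimum total 15, in at least 6 libraries), with Benjamini-Hochberg adjustment over all 9440 genes and a threshold of 0.05. A change beyond 2-fold was tested with glmTreat. For exon usage, exons with a minimum of 10 counts over all libraries entered diffSpliceDGE. CPM used TMM-scaled library totals, and log2 CPM a prior count of 2. Standard errors are the log2 fold change over the square root of F. Fits were tested on simulated counts. No library pair agreed within counting noise (lowest chi-square per degree of freedom 15.0). Alternatives, with DESeq2 1.42.0 and limma 3.58.1 among them, are given at the end. All 10 members were named, and the members and lists were chosen with earlier results of these data known. P-values weigh the species difference against the spread between lines of the same species.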

Additional observations from a re-analysis of the deposited data

Results flagged for a closer look

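One member value stood out from its group. MCL1 in chimpanzee replicate 1, at 1993 CPM, lay far above the other 5 chimpanzee libraries, the next of which held 1073 CPM. The gap was 0.660 of the range of the group, beyond Dixon's 95% critical value for 6 samples. Each of the 8 members was looked at in both species on the CPM scale. Chance alone flags about 1 in 20 such groups where values follow a normal distribution. On the log2 scale MCL1 stood at 10.96 in this library, 10.07 in the next and 9.23 in the lowest chimpanzee line. The rule was not applied on that scale. Both MCL1 exons were highest in this library among the chimpanzee lines, at 1784 and 209 CPM. The library also had the smallest total, 1434241 counts, and the lowest chromosome 19 levels of its species, and their part in the MCL1 value was not tested.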

How the results depend on the processing

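No paired analysis was possible because the replicate numbers, given in accession order, only name the lines and tie no chimpanzee line to a rhesus macaque line. The 8 members' log2 fold changes were recomputed under alternatives, which gave 188 values. None changed sign and none lost a call, and the 2 that gained one were both BCL2L11, as given above. Over all alternatives MCL1 ran from 0.90 to 1.51, BCL2L1 from 1.33 to 2.02, PMAIP1 from 1.20 to 1.99, BAX from -1.47 to -1.18 and BBC3 from -2.28 to -1.87. Their adjusted p over edgeR, DESeq2 and limma fits ran from 4.69e-05 to 0.0317 for MCL1, from 0.000172 to 0.0145 for BCL2L1, from 0.000248 to 0.0172 for PMAIP1, from 8.78e-08 to 0.0112 for BAX, from 1.53e-06 to 0.0177 for BBC3 and, with no call in most, from 0.0265 to 0.495 for BCL2L11. Leaving out 1 library gave 4215 to 4789 called genes and 5 to 6 called members, 1641 to 1818 genes and 1 to 2 members beyond 2-fold, and 260 to 504 genes and 1 member for exon usage. The lowest counts for exon usage were 260 without rhesus macaque replicate 3 and 263 without replicate 2, against 426 with all libraries. With males only, which leaves 3 chimpanzee and 4 rhesus macaque lines, 2756 of 9598 tested genes were called, against 4549 of 9440. Without the strongest exon of each gene only 4 members could be tested, of which 2 were called and 0 were beyond 2-fold (1 at an unadjusted p under 0.05 in edgeR). With library totals only, or with sex as a covariate, 2 members (BBC3 and BCL2L1) were beyond 2-fold, with limma voom 0, and with males only BCL2L1 in place of BBC3. Without the expression filter 2800 of 16903 tested genes were beyond 2-fold, against 1628 of 9440 with it. The gene-level F test called 1675 genes for exon usage, and without the 3 libraries that lie apart, an alternative chosen after seeing the data like TMM outside chromosome 19, 0 members were (1, BID, at an unadjusted p under 0.05 in edgeR). The cause of these changes was not tested. Thinned to the depth of the smallest library, BBC3 was at -2.04, BCL2L1 at 1.65 and BCL2L11 at -0.94, and exon usage was not tested at that depth.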
